A study of Mus musculus with 4 samples.

Results

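The genes described here are inhibitors of cyclin-dependent kinases (CDKs) and genes of the p53 response, measured in Langerhans cells of mice given TCDD. The set was given as 10 gene symbols, and every probe set that the platform annotation assigns to exactly 1 of those symbols was taken. A probe set is a group of short array probes that together report 1 transcript. This gave 16 of the 22626 probe sets on the array, for 9 genes: Cdkn1a, Cdkn1b, Cdkn1c, Cdkn2c, Cdkn2d, Mdm2, Ccng1, Gadd45a and Gadd45b. For Trp53, which encodes p53 itself, the annotation used here names no probe set, so its level was not analysed here. Of the 16 probe sets, 13, for 7 genes, had a mean log2 signal at or above the 40th percentile of the array and were tested. The other 3 are the Cdkn1c probe set, the Gadd45a probe set and 1 of the Cdkn1b probe sets.

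Langerhans cells take up antigen in the epidermis and present it to T cells. The dioxin TCDD (2,3,7,8-tetrachlorodibenzo-p-dioxin) activates a transcription factor, the aryl hydrocarbon receptor (AhR). As the labels and the series' design text state, the TCDD mice received 10 µg TCDD in oil or in DMSO and oil, in 100 µl, and the control mice the vehicle alone, by injection into the peritoneum. Cells were isolated 24 h later and sorted to a purity of 95%. There were 2 TCDD arrays and 2 control arrays: TCDD 1 and control 1 name no skin site, and TCDD 2 and control 2 came from back skin. The controls come from different experiments, so skin site cannot be told apart from experiment, and the pair of them is called preparation below. Only the controls are tied to an experiment by their labels, so setting TCDD 1 beside control 1, which have in common that no site is named, is an assumption. Control 2 is a control by its title and description, but its treatment text names TCDD, and the differences without it are given gene by gene. The labels state no strain, age, genotype or number of animals per array, and nothing says that the arrays of a group came from separate animals, so the p-values measure the spread between these arrays, which may be technical.

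A cell divides when cyclins activate CDKs, and CDK inhibitors hold them back. The Cip/Kip family (Cdkn1a, encoding p21, Cdkn1b, encoding p27, and Cdkn1c, encoding p57) binds cyclin and CDK complexes, while the INK4 family (Cdkn2c, encoding p18, and Cdkn2d, encoding p19) binds CDK4 and CDK6. The transcription factor p53 responds to DNA damage and other stress and switches on Cdkn1a, Ccng1 (cyclin G1), Gadd45a and Mdm2, and the Mdm2 protein in turn marks p53 for degradation. Gadd45b, a relative of Gadd45a, is a stress sensor better known as a target of NF-kB and TGF-beta. Epidermal Langerhans cells renew themselves slowly, by division in place.

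The start regions of the genes the results turn on are shown first. Both p53 and AhR act through short DNA motifs, which can lie near such starts or elsewhere. RefSeq promoter windows (GRCm38.p6, from 250 bases before to 50 bases after an annotated start) matched 8 of the 9 genes, with 10 windows in all, and Cdkn1c had none. Capitals mark a match to the p53 full site, meaning 2 copies of the 10-base p53 half-site consensus without a spacer and with at most 1 mismatch, or a match to GCGTG, the core of the AhR response element, on either strand (CACGC on the strand shown).
Cdkn1a, upstream start, chr17:29090729-29091028, plus strand: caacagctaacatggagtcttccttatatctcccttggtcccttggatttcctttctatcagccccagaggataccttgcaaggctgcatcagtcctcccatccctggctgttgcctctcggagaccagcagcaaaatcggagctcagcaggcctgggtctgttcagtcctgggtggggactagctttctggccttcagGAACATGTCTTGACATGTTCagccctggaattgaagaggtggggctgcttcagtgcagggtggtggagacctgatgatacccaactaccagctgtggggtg
Cdkn1a, downstream start, chr17:29093519-29093818, plus strand: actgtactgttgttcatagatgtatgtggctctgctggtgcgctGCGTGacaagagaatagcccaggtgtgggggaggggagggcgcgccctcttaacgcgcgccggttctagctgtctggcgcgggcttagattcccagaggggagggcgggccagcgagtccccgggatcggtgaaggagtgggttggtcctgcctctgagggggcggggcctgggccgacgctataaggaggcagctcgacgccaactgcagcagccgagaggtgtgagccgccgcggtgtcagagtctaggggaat
Ccng1, chr11:40755237-40755536, minus strand: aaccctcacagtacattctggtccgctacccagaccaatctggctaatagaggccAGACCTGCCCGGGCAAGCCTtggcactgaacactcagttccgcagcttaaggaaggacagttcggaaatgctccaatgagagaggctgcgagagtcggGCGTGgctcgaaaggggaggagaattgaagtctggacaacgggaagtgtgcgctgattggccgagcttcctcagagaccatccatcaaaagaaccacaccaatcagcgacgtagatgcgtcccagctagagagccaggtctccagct
Cdkn1b, chr6:134920151-134920450, plus strand: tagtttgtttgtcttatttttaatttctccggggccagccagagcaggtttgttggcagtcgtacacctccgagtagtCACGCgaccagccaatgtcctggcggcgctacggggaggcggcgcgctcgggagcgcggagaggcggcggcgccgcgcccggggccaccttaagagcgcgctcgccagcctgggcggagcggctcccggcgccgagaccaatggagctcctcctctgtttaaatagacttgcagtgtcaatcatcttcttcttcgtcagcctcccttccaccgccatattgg

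The p53 full site with at most 1 mismatch was found in 2 of the 10 windows, the upstream Cdkn1a window and the Ccng1 window, and in 29 of all 32851 mouse windows (0.0883%). Each of these matches had 1 mismatch, and they began at positions -51 (Cdkn1a) and -195 (Ccng1) relative to the annotated start. GCGTG was found in 7 of the 10 windows, for Cdkn1a, Cdkn1b, Cdkn2c, Cdkn2d, Mdm2, Ccng1 and Gadd45b, and in 32.4% of all windows. The p53 search was chosen after these windows had been read, and Cdkn1a and Ccng1 are known p53 targets. The p53 shares are therefore no test of enrichment. Neither are the GCGTG shares, as no comparison was made with windows of like base composition. A motif match is a description of the sequence and shows no binding. Sequence outside the windows, and p53 sites with a spacer, were not searched, so a window without a match does not mean a gene without a site.

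All 4 arrays carried Langerhans cell transcripts, and RNA quality differed between them. Epcam, an adhesion molecule of these cells, read 7540.8 and 8362.1 on TCDD 1 and TCDD 2, against 8717 and 10032.1 on control 1 and control 2. For actin, whose control probe sets read both transcript ends, the 3′ over 5′ ratio, which rises when RNA is broken or copied incompletely, was 3.48 and 7.71 on TCDD 1 and TCDD 2, against 49.7 and 4.64 on control 1 and control 2. Cd207, the langerin that defines these cells, read 5343.3 and 2154.7 on TCDD 1 and TCDD 2, against 2119.9 and 7210.5 on control 1 and control 2, so the controls held both extremes. The 9 Langerhans cell markers summed to 43067.4 and 42293.2 on TCDD 1 and 2, against 34154.8 and 56113.7 on control 1 and 2. Not all were bright: Itgax read 169.6 and 115.3 on TCDD 1 and 2, against 185.4 and 230.7 on control 1 and 2. Cdh1 read 206.6 and 137.8, against 152.5 and 166.2. H2-Eb1 read 1404.3 on control 1 and between 3972 and 7042.2 on the other arrays. Of 8 T cell markers 7 had a probe set and 6 were tested. Their summed signal was 1310.1 and 598.8 on TCDD 1 and TCDD 2, against 642.1 and 1958.8 on control 1 and control 2. The lowest single value among the 6 was 47, for Klrk1 on control 1. Summed keratinocyte markers (3 of 6 tested) read 396.7 and 512.4 on TCDD 1 and 2, against 390.1 and 492.6 on control 1 and 2. For melanocyte markers (4 of 5 tested) the sum was 608.6 and 643.9, against 683.6 and 886.2. The fibroblast and endothelium sum was 508.2 and 380.9 on TCDD 1 and 2, against 340.2 and 679.9 on control 1 and 2. It holds 2 of 5 listed genes, Col1a1 and Col1a2, as Col3a1 and the endothelial genes Pecam1 and Cdh5 were not tested. For mast cells (3 of 4 tested) the sum was 593.3 and 483.7, against 687.5 and 489.3. The part of other cells in the results was not tested. Signals are arbitrary MAS5 units on a linear scale, each array scaled to a trimmed mean of 500. In sorted bulk cells, fewer cells of a type and less RNA per cell cannot be told apart.

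The main comparison asked whether CDK inhibitor and p53 response genes differ in Langerhans cells after TCDD. None of the 13 tested probe sets passed the test between TCDD and control (limma, adjusted p = 0.9999 for each), and over the whole array it called 0 of 13576 probe sets (0%). At an unadjusted p under 0.05 the test called 0 of the 13 and 199 of the 13576 (1.47%). The signals of the 2 TCDD arrays did not overlap those of the 2 control arrays for 4 of the 13 probe sets, which is 30.8% against 25.6% of all tested probe sets. Of these, 3 were lower after TCDD (13.2% of all tested probe sets were) and 1 was higher (12.4% were). They were the brightest probe sets of Cdkn1a and Cdkn1b and the probe set of Cdkn2c (lower), and the probe set of Cdkn2d (higher). For Cdkn1a and Cdkn2d the back skin arrays were nearly level, at 19871.3 and 196.5 on TCDD 2 against 19926.7 and 189.7 on control 2. Each of the 8 tested probe sets of Mdm2, Ccng1 and Gadd45b, and the other Cdkn1a probe set, had overlapping groups. The median log2 difference was -0.14 over the 13 probe sets and -0.0064 over all tested probe sets.

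**Figure D1:**
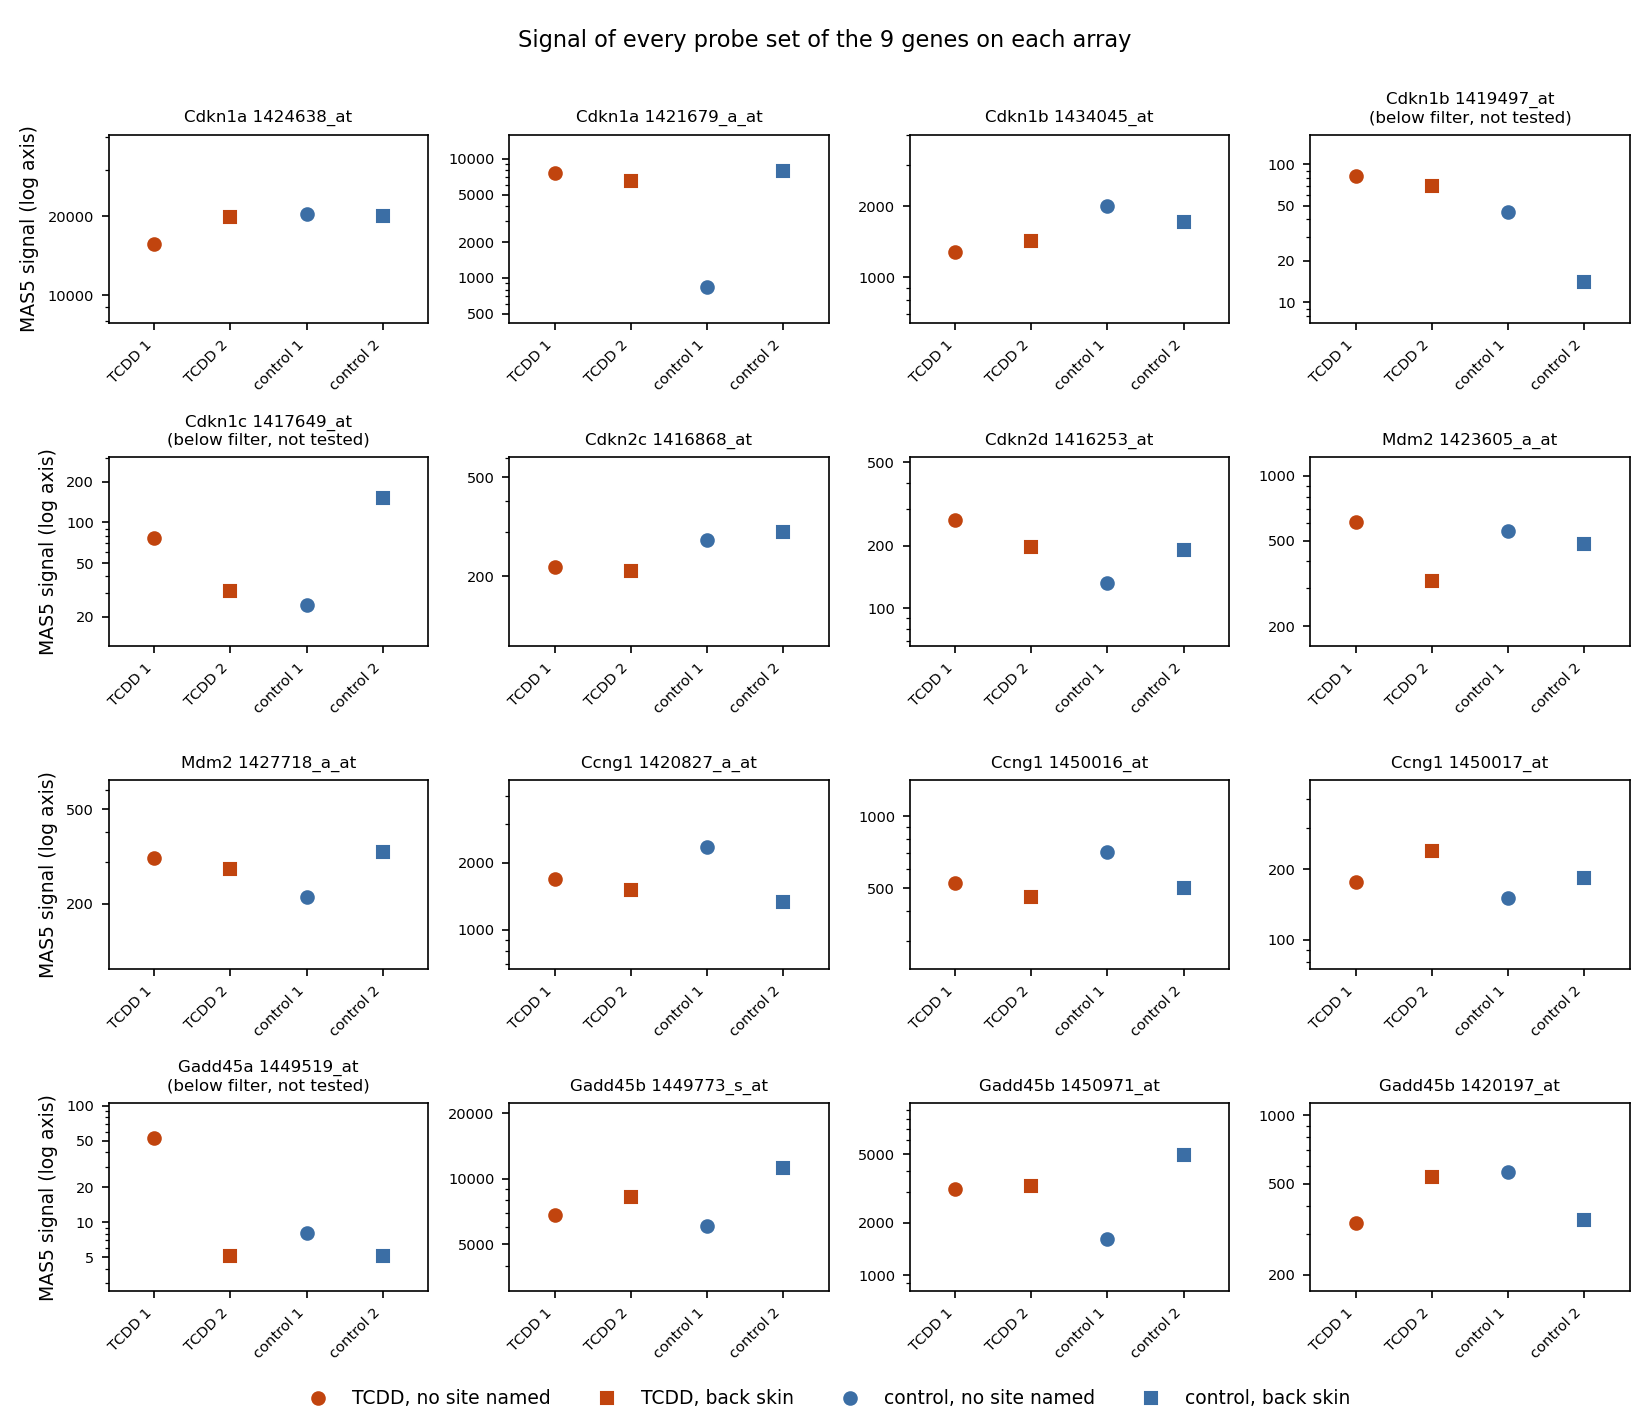
MAS5 signal (log axis) of each of the 16 probe sets on the 2 TCDD arrays (orange, left) and the 2 control arrays (blue, right); circles name no skin site, squares are back skin. Cdkn1a 1421679_a_at stands at 833.3 on control 1 and between 6513.2 and 7967.4 on the other 3 arrays, while Cdkn1a 1424638_at lies between 15631.8 and 20374.7 on all 4.

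Cdkn1a, the p53-induced inhibitor that arrests cells in G1, had 2 probe sets with different patterns. The brighter one, 1424638_at, read 15631.8 and 19871.3 on TCDD 1 and TCDD 2, against 20374.7 and 19926.7 on control 1 and control 2. Control 1 was the highest array and TCDD 1 the lowest. The groups did not overlap, but the back skin pair was nearly level, with a log2 ratio of -0.0040, and the log2 difference was -0.19 ± 0.28 (SE, n = 2 per group; 95% interval -0.82 to 0.43, limma adjusted p = 0.9999). It was -0.21 without control 2 and lay between -0.37 and -0.02 when each array was left out in turn.

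The other Cdkn1a probe set, 1421679_a_at, read 7588 and 6513.2 on TCDD 1 and TCDD 2, against 833.3 and 7967.4 on control 1 and control 2. A single array, control 1, set it apart, and the other control was the highest of the 4. The log2 difference was 1.45 ± 0.67 (SE, n = 2 per group; 95% interval -0.08 to 2.98), made up of a ratio of 3.19 where no site is named and of -0.29 in back skin (limma adjusted p = 0.9999). Without control 1 the difference was -0.18, and without control 2, which leaves control 1 as the lone control, it was 3.08 with a limma adjusted p of 6.88e-06. On control 1 its log2 signal minus the mean of the other arrays was -3.14, and 20 of the 13576 tested probe sets, itself included, lay that far below or farther (0.147%).

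Probe sets of 1 gene report the same locus, so their disagreement on an array was measured for every gene with more than 1 tested probe set. On control 1 the Cdkn1a probe sets disagreed by 3.29 log2 units in their deviation from the other 3 arrays, which ranked 17 among 2711 genes. The median gene disagreed by 0.39 on TCDD 1, 0.38 on TCDD 2, 0.56 on control 1 and 0.48 on control 2. Control 1 thus had the widest disagreement between probe sets of a gene and also the highest actin 3′ to 5′ ratio. The part of RNA quality in the low 1421679_a_at signal was not tested, and where the probes lie along the transcript was not analysed here.

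**Figure D2:**
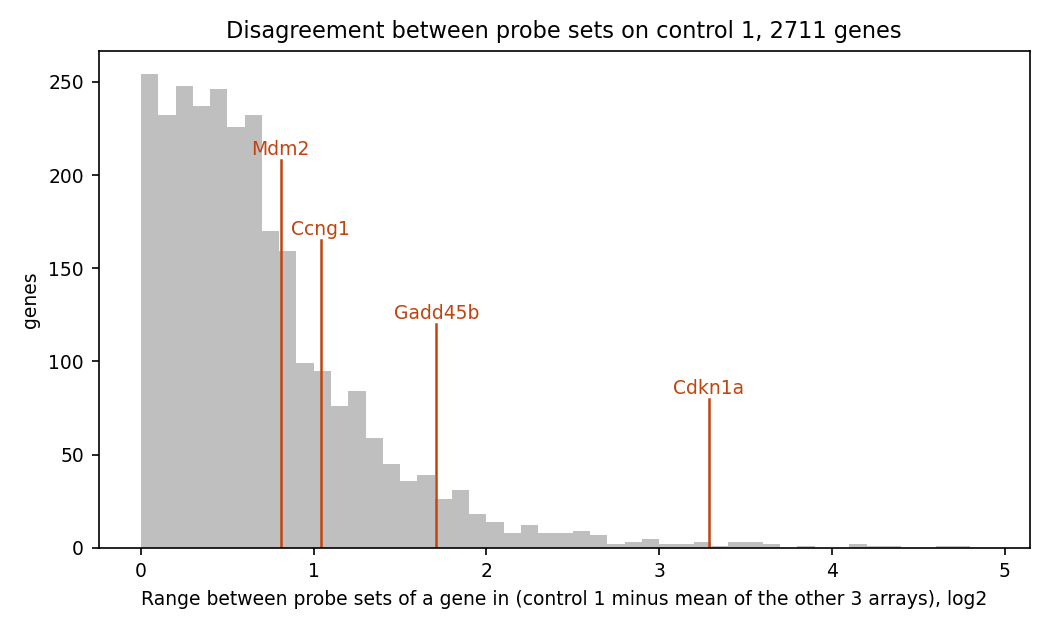
Histogram over 2711 genes with more than 1 tested probe set of the range between their probe sets in the log2 difference of control 1 from the mean of the other 3 arrays (x axis, log2 units; y axis, number of genes). Cdkn1a, at 3.29, lies in the far right tail, Gadd45b at 1.71, Ccng1 at 1.04 and Mdm2 at 0.81.

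Cdkn1b encodes p27, the inhibitor that holds cyclin E and CDK2 complexes in resting cells, and in rat hepatoma cells AhR raises it. Its bright probe set, 1434045_at, read 1275 and 1430 on TCDD 1 and TCDD 2, against 2010.8 and 1706.7 on control 1 and control 2. Both TCDD values were under both control values. The log2 difference was -0.46 ± 0.34 (SE, n = 2 per group; 95% interval -1.24 to 0.33, limma adjusted p = 0.9999), with ratios of -0.66 where no site is named and -0.26 in back skin. Leaving out 1 array at a time gave values from -0.57, which is the value without control 2, to -0.34. The dim Cdkn1b probe set, 1419497_at, ran the other way, with 82.1 and 70.2 on TCDD 1 and TCDD 2, against 45.2 and 14.1 on control 1 and control 2. It lay under the 40th percentile of the array and was not tested, so the 2 probe sets of Cdkn1b gave opposite orders of the groups.

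Cdkn1c, the imprinted inhibitor p57, had signals that varied widely between arrays. It read 77.3 and 31.2 on TCDD 1 and TCDD 2, against 24.4 and 151.2 on control 1 and control 2, with both extremes in the controls. It was not tested.

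The INK4 inhibitors had differences of opposite sign, and neither passed the test. Cdkn2c read 218.5 and 209.4 on TCDD 1 and TCDD 2, against 278.4 and 300.6 on control 1 and control 2. The arrays of each group lay close together, and the TCDD values were the lower in both preparations, with ratios of -0.35 where no site is named and -0.52 in back skin. The log2 difference was -0.44 ± 0.35 (SE, n = 2 per group; 95% interval -1.24 to 0.37, limma adjusted p = 0.9999), and it stayed between -0.49 and -0.38, the value without control 2, when any 1 array was left out. Cdkn2d read 263.7 and 196.5 on TCDD 1 and TCDD 2, against 132.4 and 189.7 on control 1 and control 2. The groups were separated by the small gap between TCDD 2 and control 2, and the ratio was 0.99 where no site is named and 0.05 in back skin. The log2 difference was 0.52 ± 0.41 (SE, n = 2 per group; 95% interval -0.42 to 1.46, limma adjusted p = 0.9999), and it was 0.26 without control 1 and 0.78 without control 2.

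**Figure D3:**
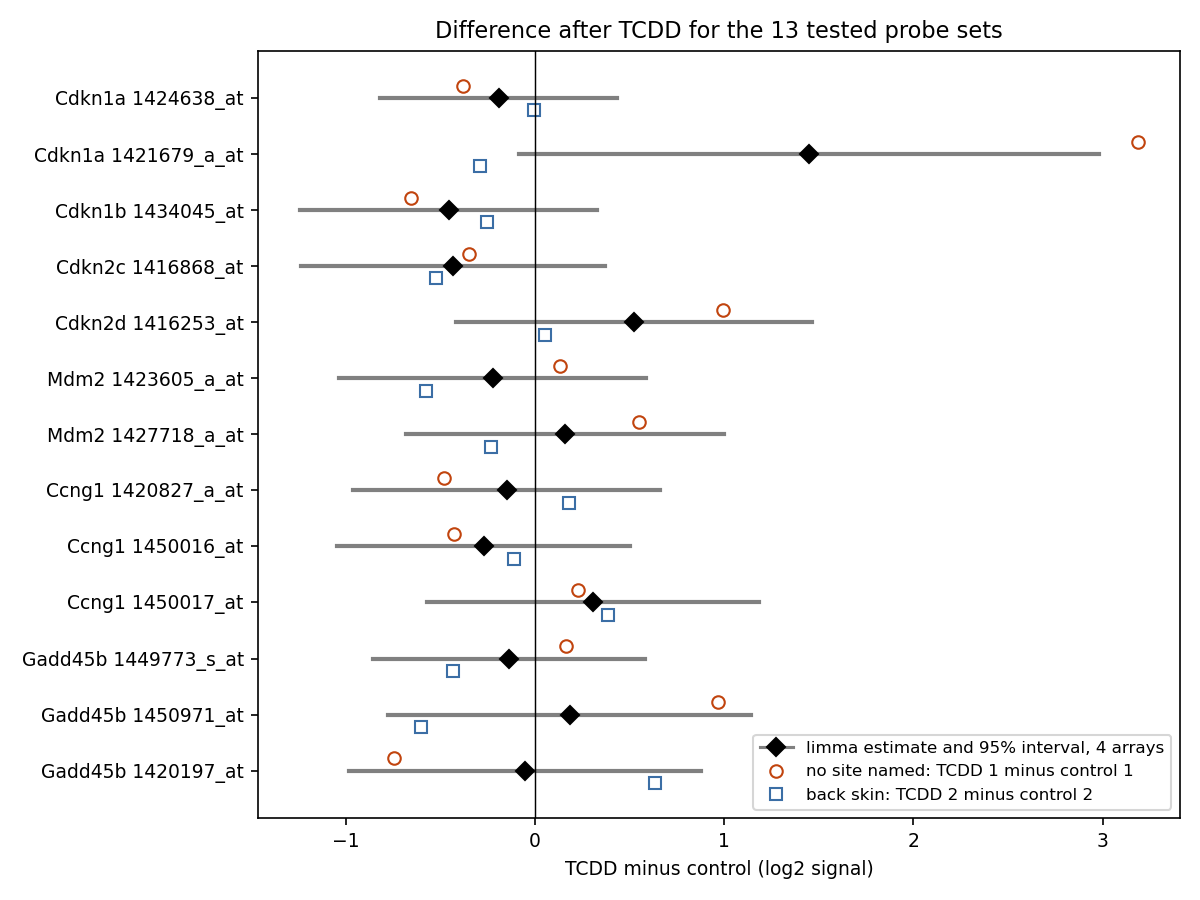
TCDD minus control log2 difference of the 13 tested probe sets (diamonds) with the 95% limma interval (grey bars), and the ratio of each preparation on its own (circles, no site named; squares, back skin). All 13 intervals include 0, and the highest estimate, 1.45 for Cdkn1a 1421679_a_at, joins ratios of 3.19 and -0.29.

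Mdm2, the ubiquitin ligase that p53 induces and that degrades p53, differed in sign between its probe sets. The brighter one, 1423605_a_at, read 607.5 and 324.2 on TCDD 1 and TCDD 2, against 555.4 and 483.5 on control 1 and control 2, a log2 difference of -0.22 ± 0.36 (SE, n = 2 per group). TCDD 2 was the lowest array and TCDD 1 the highest. The other, 1427718_a_at, read 312.4 and 281.3 on TCDD 1 and TCDD 2, against 213.7 and 331.2 on control 1 and control 2, a log2 difference of 0.16 ± 0.37 (SE, n = 2 per group). Here both extremes were controls. Both missed the threshold (limma adjusted p = 0.9999 for each), and both had a positive ratio where no site is named and a negative one in back skin. Without control 2 the differences were -0.32 for 1423605_a_at and 0.47 for 1427718_a_at.

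Ccng1, which encodes cyclin G1 and whose start region holds one of the p53-like matches shown above, was measured by 3 probe sets. The brightest, 1420827_a_at, read 1683.6 and 1516.3 on TCDD 1 and TCDD 2, against 2352.5 and 1337.8 on control 1 and control 2, a log2 difference of -0.15 ± 0.36 (SE, n = 2 per group). Probe set 1450016_at read 524.5 and 461.3 on TCDD 1 and TCDD 2, against 706.3 and 499.2 on control 1 and control 2 (-0.27 ± 0.34). In both of these control 1 was the highest array, and the TCDD arrays differed little from each other. The dimmest, 1450017_at, read 175.8 and 240 on TCDD 1 and TCDD 2, against 150.2 and 183.6 on control 1 and control 2 (0.31 ± 0.39), with control 1 the lowest. All 3 missed the threshold (limma adjusted p = 0.9999 for each). With control 2 left out, the differences were -0.56 for 1420827_a_at, -0.52 for 1450016_at and 0.45 for 1450017_at.

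Gadd45a, the p53-induced member of the GADD45 family, read 53.2 and 5.1 on TCDD 1 and TCDD 2, against 8.1 and 5.1 on control 1 and control 2. On 3 of the 4 arrays its signal was under the 5th percentile, and it was not tested. TCDD 1 was the only array with a higher reading, and at 53.2 it was still under the median signal of that array (180.8).

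Gadd45b, its stress-inducible relative, had strong signals. Probe set 1449773_s_at read 6818.2 and 8267.7 on TCDD 1 and TCDD 2, against 6089.5 and 11170.3 on control 1 and control 2, a log2 difference of -0.14 ± 0.32 (SE, n = 2 per group). Probe set 1450971_at read 3145.7 and 3257.2 on TCDD 1 and TCDD 2, against 1609.5 and 4945.1 on control 1 and control 2 (0.18 ± 0.42). In both the controls were the lowest and the highest array, with the TCDD arrays between them. The dim probe set 1420197_at read 337.9 and 536.9 on TCDD 1 and TCDD 2, against 565.7 and 346.3 on control 1 and control 2 (-0.06 ± 0.41), with control 1 as the highest array. All 3 missed the threshold (limma adjusted p = 0.9999 for each). With control 2 left out, the differences were 0.30 for 1449773_s_at, 0.99 for 1450971_at and -0.41 for 1420197_at. The suffix _s_at marks a probe set that can match transcripts of more than 1 gene, although the annotation used here names Gadd45b alone.

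**Figure D4:**
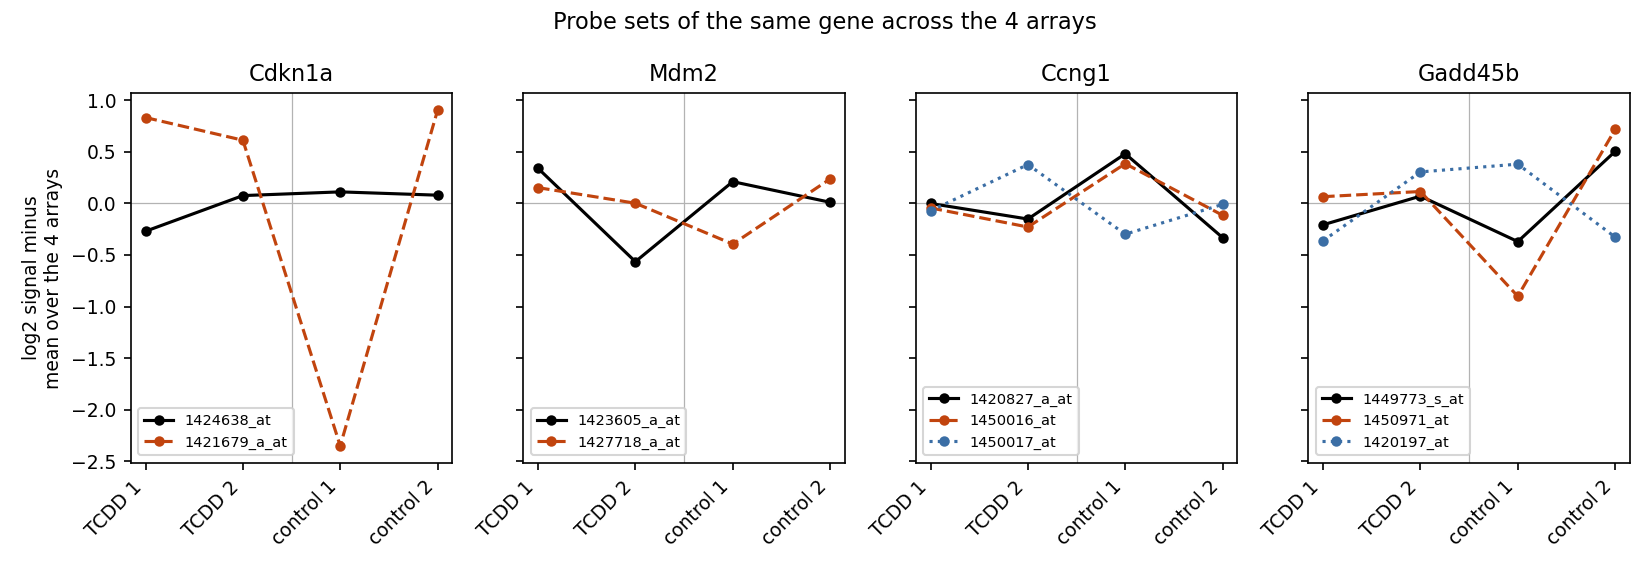
log2 signal of each tested probe set minus its own mean over the 4 arrays (y axis), by array (x axis, TCDD left of control), for the 4 genes with more than 1 tested probe set; each line is a probe set. Control 1 is where the lines of Cdkn1a part most, and on that array the Mdm2 lines, the Ccng1 lines and the Gadd45b lines also lie on both sides of 0. Lines of a gene lie on both sides of 0 on other arrays too, such as Gadd45b on control 2 and Ccng1 on TCDD 2.

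The effect of TCDD was also compared between the preparations, each with 1 TCDD and 1 control array, on the assumption that the arrays with no site named belong together. Of the 13 probe sets, 2 were higher after TCDD in both preparations, against 19.3% of all tested probe sets, and 4 were lower in both, against 21.3%. The other 7 went opposite ways, which is 53.8% against 59.3% of all tested probe sets. Higher in both were Cdkn2d and Ccng1 1450017_at, and lower in both were Cdkn1a 1424638_at, Cdkn1b 1434045_at, Cdkn2c and Ccng1 1450016_at. Opposite signs were found for Cdkn1a 1421679_a_at, both Mdm2 probe sets, Ccng1 1420827_a_at and every Gadd45b probe set.

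**Figure D5:**
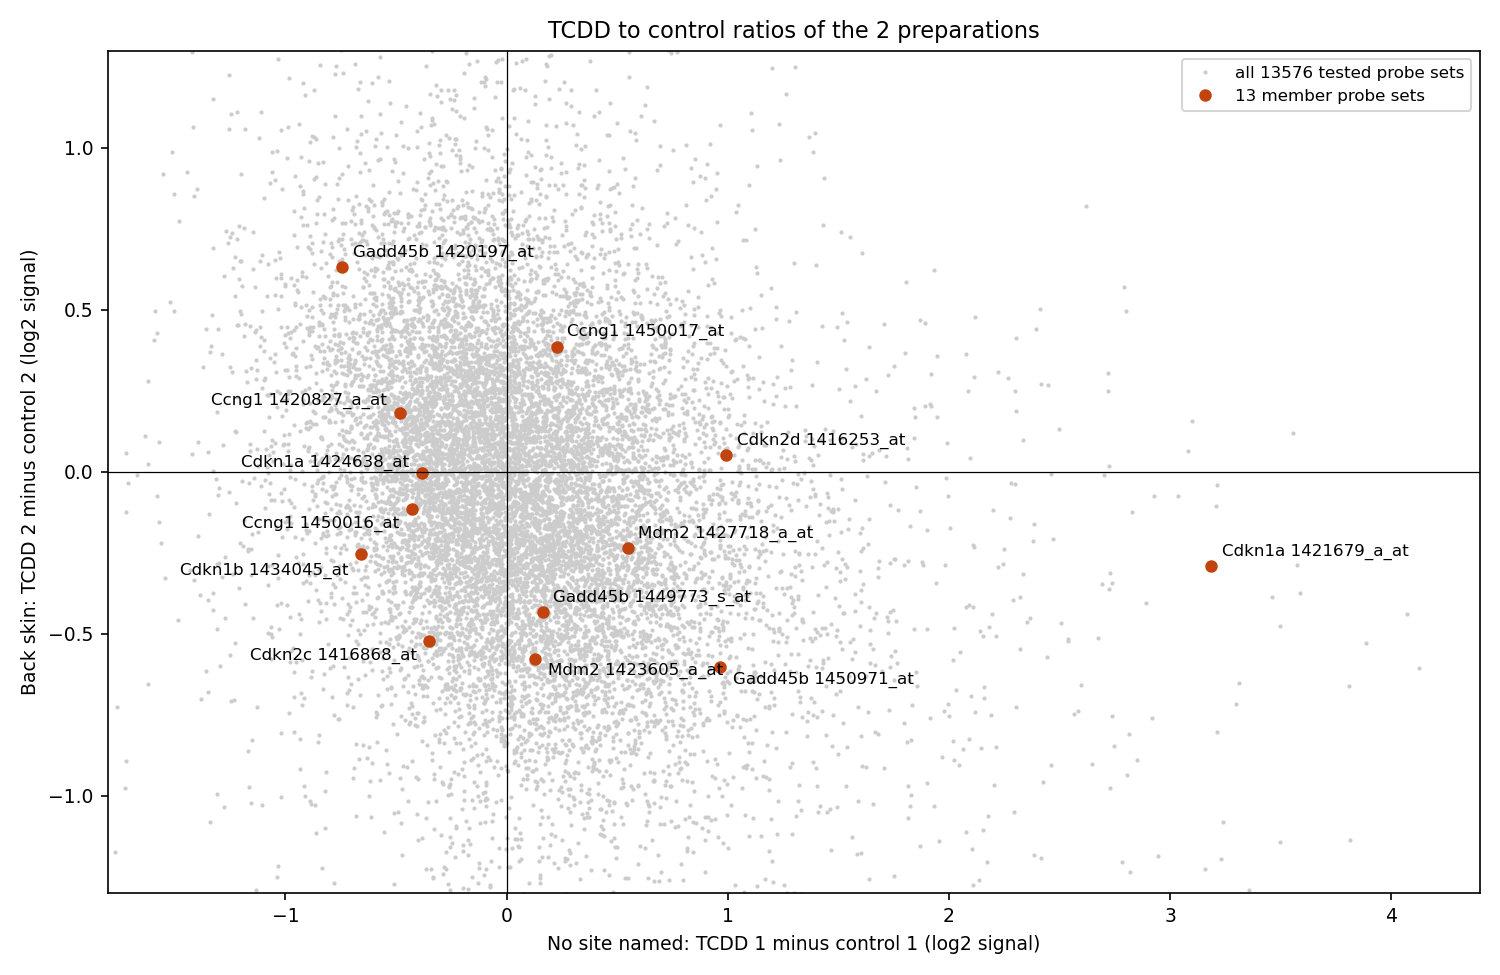
log2 ratio of TCDD 1 to control 1 (x axis) and of TCDD 2 to control 2 (y axis) for the tested probe sets (grey) and the 13 probe sets of the CDK inhibitor and p53 response genes (orange, named); 386 of the 13576 grey points lie outside the axes. Cdkn1a 1421679_a_at lies far to the right of the other orange points, at 3.19.

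The second comparison in the design set back skin against the preparation with no site named. None of the 13 probe sets passed (limma adjusted p = 0.9994 for each), and 0 of all 13576 did (0%). At an unadjusted p under 0.05 the numbers were 0 of 13 and 274 of 13576 (2.02%). Signals of the back skin arrays did not overlap those of the others for 6 of the 13 probe sets, 3 higher and 3 lower, against 32.1% of all tested probe sets. The largest of the 13 differences was that of Cdkn1a 1421679_a_at (1.52 ± 0.67), whose groups overlapped and whose value without control 1 was -0.075. Of the 3 tested Gadd45b probe sets, the strong 2 read higher in back skin without overlap and the third differed by -0.02 ± 0.41. Probe set 1449773_s_at read 8267.7 and 11170.3 in back skin, against 6818.2 and 6089.5 where no site is named, a log2 difference of 0.58 ± 0.32 (SE, n = 2 per site), and 1450971_at had a difference of 0.83 ± 0.42. The back skin ratio of 1450971_at was 0.05 between the TCDD arrays and 1.62 between the controls, and with 1 array left out its difference lay between 0.35 and 1.32. Both missed the threshold (limma adjusted p = 0.9994 for each). Mdm2 1423605_a_at read 324.2 and 483.5 in back skin, against 607.5 and 555.4 where no site is named (-0.55 ± 0.36), and with 1 array left out the difference lay between -0.84 and -0.26. The other Mdm2 probe set, 1427718_a_at, went the other way (0.24 ± 0.37), with overlapping signals. For Ccng1 the probe sets disagreed: 1420827_a_at and 1450016_at were lower in back skin without overlap (-0.48 ± 0.36 and -0.34 ± 0.34), and 1450017_at was higher without overlap (0.37 ± 0.39).

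Other genes of the p53 pathway and of the CDK machinery, each read by its brightest tested probe set, showed no call either. Over all 8413 such genes the median log2 difference was -0.03, with 17.9% higher and 22.8% lower after TCDD in both preparations and 59.2% going opposite ways. Of 30 other p53 targets listed, 23 were tested, and 0 passed in either direction (limma adjusted p = 0.9999 for each). Among them 3 were higher and 7 lower in both preparations, and their median was -0.01. The highest differences were those of Cd82, a tetraspanin that restrains metastasis (0.86 ± 0.49), and Dcxr, a carbonyl reductase (0.51 ± 0.37). Cd82 read 1327.8 and 966.1 on TCDD 1 and TCDD 2, against 355.3 and 1093.5 on control 1 and control 2, so that control 1 alone was low. The lowest were those of Ddit4, an inhibitor of mTOR signalling (-0.55 ± 0.35), and Xpc, a DNA damage sensor (-0.46 ± 0.44).

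For the regulators of p53, 11 of 14 listed genes were tested and 0 passed (limma adjusted p = 0.9999 for each), with 1 higher and 3 lower in both preparations and a median of -0.11. Atm, the kinase that signals DNA breaks to p53, had the highest difference (0.39 ± 0.35), followed by Mdm4, the partner of Mdm2 (0.25 ± 0.36). Chek2, a kinase downstream of Atm (-0.40 ± 0.35), and Hipk2, a kinase that phosphorylates p53 (-0.28 ± 0.35), had the lowest. For a list of CDKs, cyclins, the RB family, E2F factors and other regulators of the cycle, which also holds the INK4 inhibitor Cdkn2b and the genes Cdkn3, Skp2 and Cks1b, 17 of 24 were tested and 0 passed (limma adjusted p = 0.9999 for each), with 3 higher and 3 lower in both preparations and a median of -0.02. Cdk4 (0.46 ± 0.43) and Cdk2 (0.43 ± 0.37) were at the top, and Ccne1, cyclin E1 (-0.50 ± 0.55), and E2f1, a driver of S phase entry (-0.49 ± 0.37), at the bottom. Cdkn2b, named here after its values were seen, read 1015.6 and 1493.1 on TCDD 1 and TCDD 2, against 2565.7 and 1140.9 on control 1 and control 2, with control 1 the highest array. Of 9 listed AhR target genes 5 were tested. Among them 1 was higher and 1 lower in both preparations, and 0 passed (limma adjusted p = 0.9999 for each), with a median of -0.13. Tiparp (0.32 ± 0.35) and Nqo1 (0.07 ± 0.37) had the highest differences, and Cyp1b1 (-0.59 ± 0.48) and Ahrr (-0.31 ± 0.37) the lowest. Cyp1b1 was dim, with 128.4 and 83.3 on TCDD 1 and 2, against 142.3 and 170.9 on control 1 and 2. The remaining gene, Cyp1a1, was also dim, with 94.9 and 190.7, against 182.8 and 117.8 (-0.13 ± 0.51).

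The genes whose pattern over the 4 arrays was most like that of a member were found by the root mean square distance between log2 signals centred on their own mean, over 12404 probe sets. Nearest to the bright Cdkn1a probe set were Hnrnpc (0.0158 log2 units), Paxbp1 (0.0166) and Wasl (0.0170). Nearest to the bright Cdkn1b probe set were Proser1 (0.0183), Hspa8 (0.0217) and Hyou1 (0.0279), and nearest to Gadd45b 1449773_s_at were Ralgps2 (0.0081), Slc5a5 (0.0326) and Plpp2 (0.0349). With 4 arrays, such a likeness describes the order and spacing of 4 values only.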

How the data were processed

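The authors deposited 1 MAS5 signal intensity per probe set and array, on a linear scale. Per the submitters' processing notes the tools were affy and MAS5, with versions, detection calls and background settings not given in the sources used here. Per the labels' protocols, Trizol RNA was amplified (MessageAmp) and biotinylated. On every array the mean after removing 2% of probe sets at each end was 500, so the arrays had been scaled.

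The log2 of each signal was used as deposited. After 64 control probe sets were set aside, the 13576 probe sets at or above the 40th percentile of mean log2 signal (6.85) entered an additive limma model (limma 3.58.1, R 4.3.3) of treatment plus preparation, whose empirical Bayes step used a trend in the variance. P-values were Benjamini-Hochberg adjusted over all of them, at a threshold of 0.05. Each probe set keeps 1 residual degree of freedom. Precision is limited by having 2 arrays per group, with a median SE of 0.36 log2 units. Fits without 1 array dropped the preparation term for TCDD and the treatment term for back skin. Across tested probe sets, the log2 difference of control 2 from control 1 was correlated at -0.18 with that of TCDD 2 from TCDD 1. In log2 signal, control 1 correlated at 0.933 with TCDD 1 and at 0.941 with TCDD 2. Control 2 correlated at 0.947 with TCDD 2 and at 0.960 with TCDD 1. Each control was thus more like the TCDD array of the other preparation.

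The members and lists were chosen with earlier results of these data known. Every member probe set is shown. From each list of pathway genes, the 2 genes with the largest difference in each direction are named. Marker lists are given by the summed signals of their tested genes. The 3 nearest patterns are given for 3 members. Gene names come from the platform annotation, and sequences from RefSeq (GRCm38.p6). The p53 motif search was chosen after the windows had been read. The alternatives tried were quantile normalization, median centring, no filter and a stricter one, a signal floor, an added offset and no variance trend. Others were a fit with no block for preparation (TCDD) or no treatment term (back skin), and leaving out each array.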

Additional observations from a re-analysis of the deposited data

Results flagged for a closer look

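For 7 of the 13 tested probe sets the log2 ratio of TCDD to control had opposite signs in the 2 preparations, each from 1 TCDD and 1 control array, and the difference between the ratios was not tested. The ratio where no site is named minus the ratio in back skin was 3.48 for Cdkn1a 1421679_a_at, 1.57 for Gadd45b 1450971_at, -1.38 for Gadd45b 1420197_at, 0.78 for Mdm2 1427718_a_at, 0.71 for Mdm2 1423605_a_at, -0.66 for Ccng1 1420827_a_at and 0.60 for Gadd45b 1449773_s_at. In 59.3% of all tested probe sets the ratios also had opposite signs.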

How the results depend on the processing

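For TCDD against control, the 13 log2 differences kept their sign and stayed below the threshold in all 102 values from other settings (smallest limma adjusted p = 0.9998), the fit without the preparation block included. For back skin against the other preparation, 97 of 102 did so. The 5 that turned were small: with quantile normalization Cdkn1b 1434045_at was 0.013, Cdkn2c -0.016 and Cdkn2d -0.0084, and with median centring Cdkn2c was -0.038 and Cdkn2d -0.015. Cdkn2d and Ccng1 1450017_at fell below the stricter filter and have no value from it in either comparison. The number of probe sets past an adjusted p of 0.05 was 0 for TCDD with and without the preparation block (replicate block). In the back skin comparison the number was 0 with and without the treatment term. With 1 array left out it lay between 0 and 285 for TCDD (12 without control 1, 285 without control 2) and between 0 and 89 for back skin (89 without TCDD 1). Such fits take the spread of a single remaining array from the other group.

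With 1 array left out, the TCDD difference lay between -0.18 and 3.08 for Cdkn1a 1421679_a_at, -0.56 and 0.26 for Ccng1 1420827_a_at, -0.41 and 0.30 for Gadd45b 1420197_at, -0.57 and 0.30 for Gadd45b 1449773_s_at, -0.63 and 0.99 for Gadd45b 1450971_at, -0.68 and 0.23 for Mdm2 1423605_a_at and -0.16 and 0.47 for Mdm2 1427718_a_at. With no change of sign, it also moved widely for Cdkn1a 1424638_at (-0.37 to -0.02), Ccng1 1450016_at (-0.52 to -0.02) and Ccng1 1450017_at (0.082 to 0.53). The back skin difference lay between -0.075 and 3.11 for Cdkn1a 1421679_a_at, -0.034 and 0.35 for Cdkn1a 1424638_at, -0.36 and 0.29 for Cdkn1b 1434045_at, -0.24 and 0.29 for Cdkn2c, -0.45 and 0.54 for Cdkn2d, -0.39 and 0.35 for Gadd45b 1420197_at and -0.033 and 0.51 for Mdm2 1427718_a_at. It kept its sign for Mdm2 1423605_a_at (-0.84 to -0.26), Ccng1 1420827_a_at (-0.72 to -0.24), Ccng1 1450016_at (-0.56 to -0.13), Ccng1 1450017_at (0.18 to 0.56), Gadd45b 1449773_s_at (0.36 to 0.79) and Gadd45b 1450971_at (0.35 to 1.32). Only Cdkn1a 1421679_a_at passed the test in any of these fits, for TCDD without control 2 (limma adjusted p = 6.88e-06) and for back skin without TCDD 1 (limma adjusted p = 0.000999), and in both control 1 is the lone array on its side. The cause was not tested. No detection calls are given, so signal over background limits the dim probe sets most.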

Other observations

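Proliferation markers, the genes active when CDK inhibitors are overridden, mostly had ratios of opposite sign in the 2 preparations. Of 10 tested, 0 were higher after TCDD in both preparations, 1 was lower in both (Aurkb, a mitotic kinase, -0.35 ± 0.46) and 9 went opposite ways, against 59.2% of all genes. Mki67, the cell division marker, read 244.4 and 353.1 on TCDD 1 and TCDD 2, against 532.1 and 349 on control 1 and control 2 (-0.55 ± 0.39). Mcm6, a subunit of the replicative helicase, read 413.5 and 665.1 on TCDD 1 and TCDD 2, against 758.4 and 236.9 on control 1 and control 2 (0.31 ± 0.52), and Mcm4, another subunit, differed by 0.18 ± 0.35. All 10 missed the threshold (limma adjusted p = 0.9999 for each), and their median log2 difference was 0.0030.

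Of 14 tested stress-activated immediate early genes, 5 were higher and 1 lower after TCDD in both preparations (17.9% and 22.8% of all genes were), with a median of 0.15 and 0 past the test (limma adjusted p = 0.9999 for each). Junb, a subunit of the AP-1 factor, had the highest difference (0.69 ± 0.34), followed by the transcription factor Klf4 (0.54 ± 0.34), and Atf3 (-0.28 ± 0.38) and the phosphatase Dusp1 (-0.24 ± 0.33) had the lowest. Of 5 tested relatives and partners of GADD45, 0 were higher and 2 lower in both preparations, beside the same shares of all genes (Gadd45gip1, -0.53 ± 0.46, and the kinase Mapk8, -0.28 ± 0.34), with a median of 0.05. Map3k4 (0.06 ± 0.57) and Mapk14 (0.06 ± 0.43), kinases of the stress cascade that GADD45 proteins activate, had the highest differences.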
